A study of Glycine max with 12 samples.

Results

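The comparison described here sets whole seeds holding heart-stage embryos against whole seeds holding globular-stage embryos of soybean (Glycine max), cultivar Williams 82. It rests on 2 of the 12 samples of the series, 1 for each stage, and on the 66210 gene models counted in both. The heart-stage seeds were 2 to 2.5 mm long and the globular-stage seeds 0.8 to 1.1 mm. The study followed poly-A RNA through seed development and in other organs: beside these stages it sampled cotyledon-stage seeds of 3 to 3.9 mm, early-maturation seeds of 6 to 7 mm, longer seeds at mid maturation (1.1 to 1.3 cm) and late maturation (1.2 to 1.5 cm), and dry seed. It further sampled seedlings 6 days after imbibition, trifoliate leaves, nodule-free roots and stem internodes of plants 3 to 4 months old, and unopened floral buds. All plants were greenhouse-grown and none was treated, and how many plants or seeds went into a sample is not given in the sources used here.

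In a globular-stage seed the embryo is a ball of cells without organs, surrounded by endosperm and by a seed coat that comes from the mother plant. At the heart stage the cotyledons, which later store protein and oil, begin to emerge. LEAFY COTYLEDON1 (LEC1) and ABSCISIC ACID INSENSITIVE3 (ABI3) are transcription factors known, chiefly from Arabidopsis, to direct the embryo into maturation, when storage proteins and oil accumulate. A whole seed mixes embryo, endosperm and coat, so that a change in the amount of one tissue and a change in RNA per cell cannot be told apart.

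The heart sample held 22019637 counts and the globular sample 45726019. Levels are counts-per-million values (CPM) scaled by TMM (trimmed mean of M-values), and 3 counts equal 0.126 CPM in heart and 0.0602 CPM in globular seed. With 1 sample a stage there is no spread between replicates and no test, and stage and sample cannot be told apart. Intervals given with folds are 95% exact binomial (Clopper-Pearson) intervals that cover counting error only. The names of genes below are published locus assignments. The files and the reference table do not pair the identifiers with names, so the assignments were not checked against sequence, and other genes are given by identifier alone. A gene was measured when its mean over both samples was at least 1 CPM. It was called higher or lower when heart and globular differed by 4-fold or more and the higher sample had at least 10 CPM. Counts below 3 were raised to 3 for this.

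Of 31679 measured genes, 451 (1.42%) had a higher level in heart seed than in globular seed and 256 (0.808%) a lower one. The median fold was 7.90 among the higher genes, and 5.63 in the other direction among the lower genes. Changes of 16-fold or more numbered 138 among the higher genes and 28 among the lower, and changes of 64-fold or more 57 and 10. Of the higher genes, 107 were under 1 CPM in globular seed and 8 had 0 counts there. Of the lower genes, 21 were under 1 CPM in heart seed and 4 had 0 counts. The higher genes took 6.21% of all counts in heart seed and 0.777% in globular seed, and the lower genes 0.378% in heart and 2.24% in globular seed. These values chose the genes and are given as a description. At the threshold, the 3 nearest higher genes inside it had folds of 4.02 to 4.03 and the 3 nearest outside 3.99 to 4.00. For the lower genes these folds were 4.00 to 4.02 and 3.97 to 3.98. The log2 ratio of all measured genes had a median of -0.06.

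**Figure D1:**
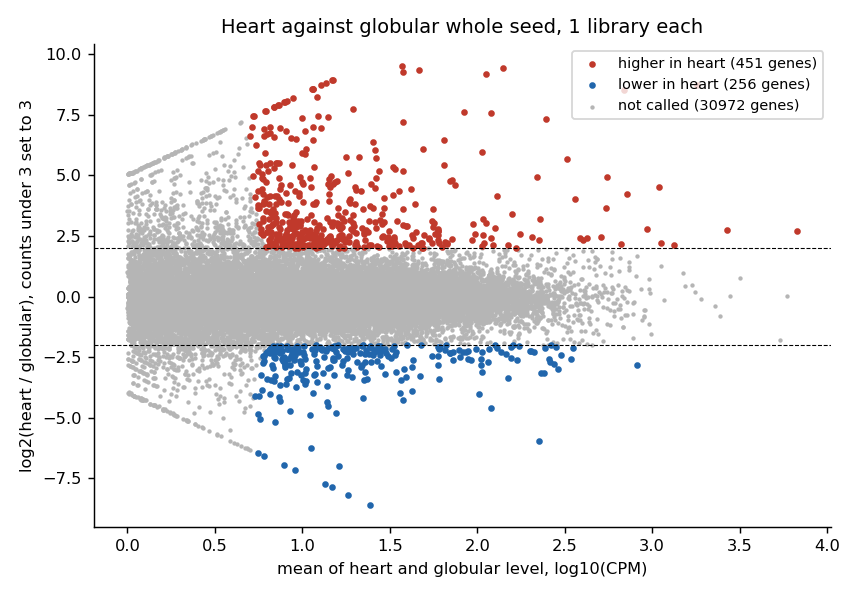
Each point is 1 of the 31679 measured genes: the horizontal axis is the log10 of its mean CPM in heart and globular seed, the vertical axis its log2 ratio of heart over globular, and dashed lines mark 4-fold. The 451 genes called higher (red) reach larger folds than the 256 called lower (blue), and the uncalled genes (grey) form a band around 0 that narrows with the level.

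Among the seed regulators, 3 of the 5 measured loci rose and none fell (list of 6), against 1.42% and 0.808% of all measured genes. The lists were chosen with earlier results of these data known. The ABI3 homolog Glyma08g47240 had 461 counts in heart seed (19.3 CPM) and 38 in globular seed (0.762 CPM), a 25.3-fold rise (18.2 to 36.2). The other ABI3 homolog, Glyma18g38490, had 306 counts in heart and 14 in globular seed and rose 45.6-fold (26.8 to 84.4). The LEC1 homolog Glyma07g39820 had 295 and 35 counts in heart and globular seed (17.6-fold, 12.4 to 25.7). None of the remaining loci reached 10 CPM: the LEC1 homolog Glyma17g00950 had 215 counts in heart and 11 in globular seed (40.8-fold, 22.3 to 82.9). WRINKLED1 (WRI1) encodes a transcription factor that switches on oil synthesis genes, as known from Arabidopsis. Its homolog Glyma15g34770 had 5.82 CPM in heart and 0.782 CPM in globular seed, and Glyma08g24420 had 44 counts in heart and 2 in globular seed (45.9-fold, 11.97 to 391). All 6 levels were thus above the globular ones, by 7.43-fold (Glyma15g34770) or more. The list's median log2 ratio was 4.66 over its 5 measured members, against -0.06 over all measured genes.

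These loci all rose further in cotyledon and early-maturation seed and differed in dry seed. In cotyledon and early-maturation seed the LEC1 homologs had 43.0 and 285 CPM (Glyma07g39820) and 52.8 and 457 CPM (Glyma17g00950). The ABI3 homologs had 108 and 292 CPM (Glyma08g47240) and 59.6 and 175 CPM (Glyma18g38490) there. Over globular, heart, cotyledon and early-maturation seed Glyma15g34770 stood at 0.782, 5.82, 16.2 and 44.2 CPM, and Glyma08g24420 at 0.0401, 1.84, 2.51 and 11.5 CPM. In dry seed both were low, at 0.393 CPM and 0 counts, like the LEC1 homologs at 0.236 and 0.393 CPM. The ABI3 homologs were at 243 (Glyma08g47240) and 801 CPM (Glyma18g38490) there. Outside the seed, in seedling and the other 4 organs, the LEC1 and ABI3 homologs were between 0 and 0.440 CPM, while Glyma15g34770 ranged from 0.943 in stem to 3.10 CPM in floral bud.

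Most transcripts of the proteins that fill the mature seed were lower in heart than in globular seed by value, at levels too low to be called. Glycinins (Gy1 to Gy5) and beta-conglycinins are the storage globulins of soybean, LE1 is the seed lectin, P34 a protein of the papain family known as an allergen, and LOX1 to LOX3 are the seed lipoxygenases. Gy1 (Glyma03g32030) had 2 counts in heart and 237 in globular seed, Gy2 (Glyma03g32020) 1 and 120, and P34 (Glyma08g12270) 1 and 216. LE1 (Glyma02g01590) had 3 counts in heart and 121 in globular seed, LOX2 (Glyma13g42310) 5 and 97, and the alpha-prime subunit of beta-conglycinin (Glyma10g39150) 34 and 435. In globular seed the highest of them, the alpha-prime subunit, stood at 8.73 CPM, so that none could meet the minimum of 10 CPM and none was called. Of the 3 measured storage protein loci (list of 10) and the 4 measured loci of other seed proteins (list of 6), all had a ratio below 1, with median log2 ratios of -4.26 and -3.75. The oleate desaturase FAD2-1B (Glyma20g24530), which forms linoleic acid in seed oil, had 3 counts in heart and 40 in globular seed. The other listed locus of this kind, FAD2-1A (Glyma10g42470), did not share this direction: it had 12 and 10 counts (2.50-fold, 0.991 to 6.47).

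Most of these low globular values followed the early-maturation values of the same genes in a nearly fixed proportion. Over the 29 genes above 200 CPM at early maturation and at 0.5 CPM or less in heart (both before TMM scaling), the globular sample held a median of 7.13 CPM per 10000 CPM at early maturation, called the share here. Quartiles were 6.46 and 8.34 and extremes 5.41 and 14.1, and the globular counts behind them ran from 7 to 237, with a median of 21. The upper quartile was 1.29 times the lower one. Set against dry seed in place of early maturation, the globular values of the same genes had an upper quartile 30.01 times the lower one. In the other samples the median of these 29 genes was 43.6 in cotyledon seed (quartiles 3.56 and 103), 12.4 in seedling (4.72 and 23.8), 0.444 in floral bud and 0 in leaf, root and stem, each per 10000 CPM at early maturation. In heart it was 0.735 (0.117 and 2.61), but heart was used to choose the genes. When cotyledon in place of heart had to be low, 8 genes gave 7.10.

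A gene was marked as near the share when its globular level was 0.5 to 2 times the share of its early-maturation level and the share gave at least 3 expected counts. Of 1691 gene models with at least 3 expected counts, 68 were near the share, 5 below and 1618 above it. Of the 307 with at least 10 expected counts, 46 were near the share and 0 lay below it. The 68 marked genes took 0.00829% of all counts in globular seed, 0.469% in heart seed and 11.4% at early maturation. Over all genes, the share amounts to 0.0713% of the globular counts. Whether early-maturation RNA or reads entered the globular sample was not tested.

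**Figure D2:**
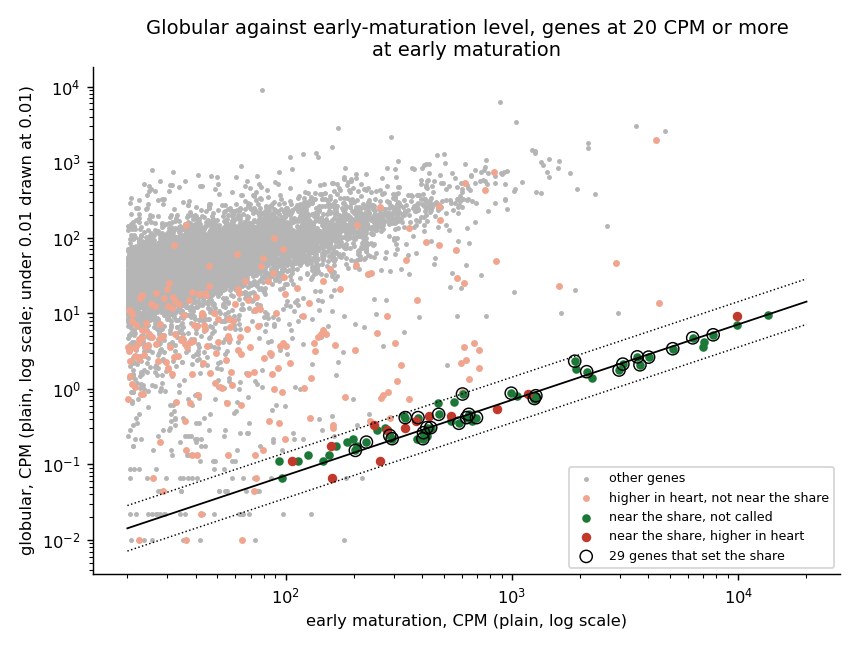
Each point is a gene with at least 20 CPM at early maturation, with its early-maturation level (horizontal) and its globular level (vertical), both in CPM before TMM scaling on log axes. The solid line is the share of 7.13 per 10000, the median of the 29 circled genes, and the dotted lines are 0.5 and 2 times it. Marked genes (green, or red where called higher in heart) were chosen for lying between the dotted lines, so their place is by definition. Nearly all other genes at the same early-maturation level lie above them.

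Of the 56 listed loci with a row in the count data, 12 were near the share. They were Gy1, Gy2, Gy4, Gy5 and the alpha-prime subunit, LE1, P34, the 3 seed lipoxygenases, FAD2-1B and the LEC1 homolog Glyma17g00950. All but the alpha-prime subunit, LOX3 and Glyma17g00950 were also among the genes that set the share. For those genes, nearness to the share is partly by construction. For Gy1 the share gives 252 expected globular counts against 237 counted, for P34 205 against 216, and for the alpha-prime subunit 440 against 435. For Glyma17g00950 it gives 13.8 against 11. Of the other regulators, Glyma07g39820, Glyma08g47240 and Glyma18g38490 lay above the share, which equals 24.5%, 23.1% and 37.6% of their globular counts. With the share taken off, their folds became 23.3, 32.9 and 73.1. Both WRI1 homologs had under 3 expected counts and could not be marked. The share equals 3.41% of the globular counts of Glyma15g34770 and 17.2% of the 2 globular counts of Glyma08g24420. SWEET10b (Glyma08g19580), a sugar transporter of the seed, was not near it: its globular level was 694 per 10000 of early maturation. FAD2-1A also lay above the share, at 18.3 per 10000.

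Genes with under 3 expected counts could not be marked. They were 365 of the 451 higher genes, 248 of the 256 lower genes and 30027 of all 31679 measured genes. The mark fell on 13 of the 451 higher genes (2.88%), and on 39 of all measured genes (0.123%). Of these 13, 10 were at least 4-fold above heart at early maturation, and 12 were under 1 CPM in all 5 non-seed organs. The count of 10 is partly by construction, since the mark asks for an early-maturation level far above globular. The folds of the 13 marked genes, from the counts as they are, were 39.4 to 735 with a median of 128. They too are large partly by construction, since the mark asks for a globular level far under early maturation. In 3 of them the globular count was no larger than the share gives. One is Glyma03g04390, which had the largest fold with counts below 3 raised to 3: 1762 heart counts, and 5 globular counts where 8.50 were expected from the share. The next on that scale, Glyma17g09110, had 6662 heart counts, and 20 globular counts where 14.1 were expected. The other 438 higher genes had a median fold of 7.60, and 9 of the 73 higher genes above the share had 25% or more of their globular counts in it. With the share taken off, the 451 higher genes were called again with 3 more, and the 256 lower genes were the same. Removal only reduces globular counts, so it could not undo a higher call, and no lower gene was near the share. The outcome is thus no check of the calls.

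None of the 256 lower genes was near the share. No gene near it exceeded 8.73 CPM in globular seed, so none could meet the minimum of 10 CPM in that direction. With a minimum of 1 CPM, 879 genes were lower, and 11 of them were near the share. These 11 had 1.42 CPM or less in heart and at least 1.54 CPM in globular seed, and 7 were listed loci (Gy1, Gy2, Gy4, the alpha-prime subunit, LE1, P34 and LOX2). All 11, and no others, ceased to be lower when the share was taken off. This is partly by construction, since the mark picks genes whose globular level is close to the share. Gy1, Gy2, Gy4, LE1, P34 and LOX2 were also among the genes that set it. With the share taken off, the alpha-prime subunit, LOX2 and LE1 had log2 ratios of 4.56, 1.80 and 0.50. Before, these were -2.62, -3.22 and -4.27. Gy1, Gy2, the alpha-prime subunit and LOX2 had no globular counts left over the share. The values 4.56 and 1.80 thus set 34 and 5 heart counts against the floor of 3 and give no measured fold.

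Of the other listed loci none was called. Proanthocyanidins are tannins of the seed coat made from flavonoids, and ANR1 (Glyma08g06630), an anthocyanidin reductase of that branch, came nearest to the threshold. ANR1 stood at 630 CPM in heart and 170 CPM in globular seed, which is 3.70-fold (3.61 to 3.80). Later it had 443 CPM at the cotyledon stage and 315 CPM at early maturation, and 0 to 0.342 CPM in the non-seed organs. The flavonoid 3-prime hydroxylase Glyma06g21920, which shapes flavonoid colour, had 378 CPM in heart and 126 in globular seed (3.00-fold, 2.91 to 3.10). Chalcone synthases, which make the first flavonoid, differed less: CHS7 had 150 and 101 CPM and CHS8 79.7 and 65.3 CPM in heart and globular seed. The isoflavone synthase IFS2 had 1.21 and 1.69 CPM in heart and globular seed. The seed coat peroxidase locus Glyma09g02600 was low in both (0.711 CPM in heart, 0.582 in globular seed) and highest in seedling (325 CPM), so it did not serve as a seed coat marker here. IFS1, the flavonoid 3-prime 5-prime hydroxylase and the R2R3 MYB of the R locus were listed at 0 counts in all 10 count samples. For IFS1 the mid- and late-maturation samples list 36.4 and 130 RPKM on another set of gene models, so its zeros may not show absence. The list's median log2 ratio was 0.57 over 5 measured members.

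Among the 6 measured fatty acid desaturases (list of 8) the median log2 ratio was 0.35. The linolenic acid desaturases FAD3A, FAD3B and FAD3C had 25.7, 32.1 and 45.2 CPM in heart and 19.96, 25.5 and 33.3 CPM in globular seed. The seed-preferred stearoyl desaturase SACPD-C had 21.9 CPM in heart and 29.5 in globular seed. At early maturation it reached 791 CPM. Among the 6 measured genes of sugars and phytate (list of 7) the median was 0.43. MIPS1 (Glyma18g02210), which makes the inositol backbone of phytate, had 247 CPM in heart and 130 in globular seed (1.90-fold, 1.83 to 1.96). SWEET10b had 53.2 and 39.8 CPM in heart and globular seed, while SWEET10a had 0 counts in heart and 1 in globular seed. Its early-maturation level was 74.7 CPM. Stachyose synthase had 9.96 and 5.70 CPM and the raffinose synthase RS2 4.14 and 3.13 CPM in heart and globular seed.

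The 3 measured genes of flowering and light (list of 7) had a median log2 ratio of -0.22: the GIGANTEA homolog E2 had 126 CPM in heart and 147 in globular seed, and the phytochrome A genes E3 and E4 13.3 and 74.5 CPM in heart and 15.4 and 70.9 CPM in globular seed. FT5a (Glyma16g04830), a homolog of the flowering signal FLOWERING LOCUS T of Arabidopsis, was not measured by the 1 CPM rule, yet it had 34 counts in heart and 2 in globular seed (35.5-fold, 9.09 to 305). It stood at 2.47 CPM in cotyledon and 0.142 CPM in early-maturation seed, and at 0.283 CPM or less in the non-seed organs. The 5 genes often used as references lay between 0.725-fold (PEPKR1) and 1.55-fold (ACT11) of the globular level in heart.

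**Figure D3:**
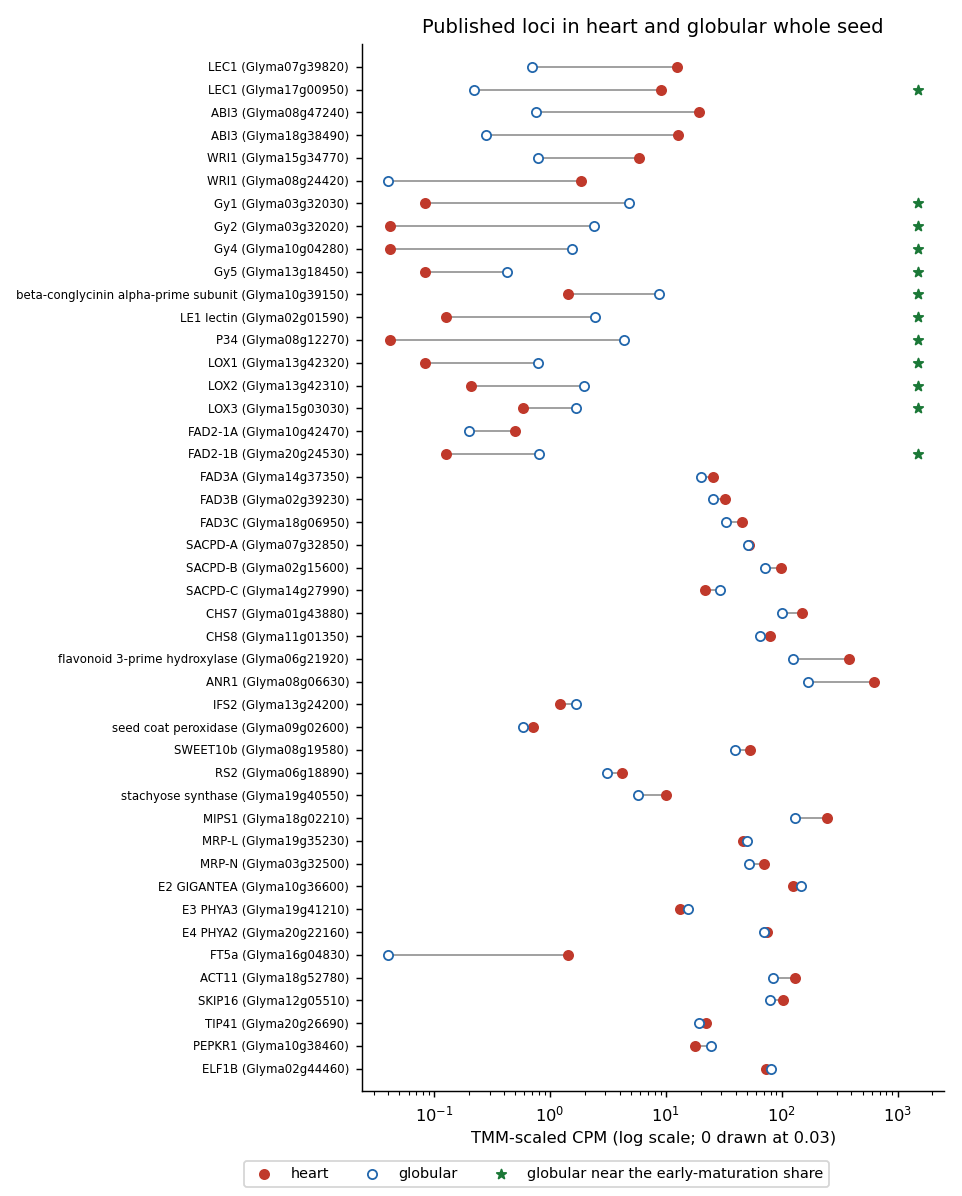
Each row is a published locus with at least 3 counts in one of the 2 samples, and the horizontal log axis is its TMM-scaled CPM in heart (filled red) and globular seed (open blue), with a star for loci near the early-maturation share. The regulators at the top lie to the right in heart, the starred storage and seed protein loci to the left, and most other loci lie close together.

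Of the 451 genes that were higher in heart, 427 (94.7%) were within 4-fold of heart in cotyledon seed, 16 (3.55%) were at least 4-fold above it and 8 (1.77%) at least 4-fold below. Among all 17655 genes with at least 10 CPM in heart these shares were 99.7%, 0.125% and 0.21%. Over globular, heart, cotyledon, early-maturation and dry seed their medians were 2.85, 22.8, 37.2, 22.6 and 0.236 CPM. At early maturation 50 (11.1%) stood at least 4-fold above heart and 86 (19.1%) at least 4-fold below. Among those 17655 genes these shares were 1.25% and 3.34%. In dry seed 354 (78.5%) were at least 4-fold below heart, against 33.9% of them. These comparisons share the heart sample with the one that chose the genes, so counts are set side by side without a test.

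A large group of the higher genes was low outside the seed. The highest non-seed organ was at least 4-fold under the heart level in 182 (40.4%) of them, against 2.76% of all genes with at least 10 CPM in heart. In 101 (22.4%, against 0.884%) every non-seed organ was under 1 CPM. A further 173 (38.4%, against 61.4%) had an organ at or above the heart level. Over the 10 count samples, 99 of the higher genes (22.0%) were highest in heart, which also chose them, 102 (22.6%) in cotyledon and 95 (21.1%) in early-maturation seed. Among all genes with at least 10 CPM in heart these shares were 11.9%, 3.23% and 9.52%. Root was highest for 39 (8.65%, against 6.31%), stem for 36 (7.98%, against 8.51%) and dry seed for 32 (7.1%, against 29.5%). Seedling was highest for 31 (6.87%, against 3.96%), floral bud for 10 (2.22%, against 2.0%) and leaf for 7 (1.55%, against 11.2%).

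**Figure D4:**
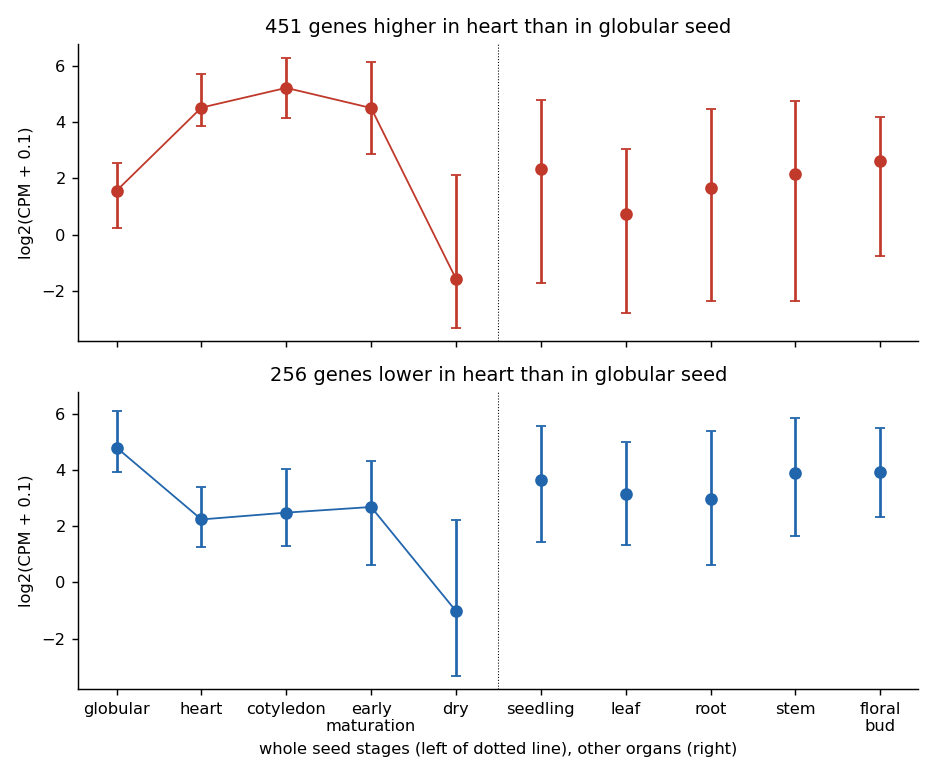
Points are medians and bars quartiles of log2(CPM + 0.1) over the 451 genes higher (top) and the 256 genes lower (bottom) in heart than in globular seed, in the 10 count samples. The higher genes peak at the cotyledon stage and are low in dry seed, while the lower genes stay low through early maturation and have higher medians in seedling and the other 4 organs than in heart.

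The following genes are those with the highest CPM in their class, which favours long transcripts. Of the genes under 1 CPM in all non-seed organs, Glyma07g28940 (chromosome 7) had 1798 CPM in globular, 11683 in heart, 13183 in cotyledon and 4708 CPM in early-maturation seed, and 0 counts in dry seed. Its level was thus already high in globular seed. Glyma06g02500 (chromosome 6), marked as near the share, stood at 8.37, 3600.3, 12789, 10717 and 0.551 CPM over the same stages from globular to dry seed. The share gives 77.3% of its 417 globular counts.

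Other higher genes peaked in heart. Glyma10g40300 (chromosome 10) had 90.8 CPM in globular, 2102 in heart, 1428 in cotyledon and 96.5 CPM in early-maturation seed, and at most 0.293 CPM in non-seed organs. Glyma09g30910 (chromosome 9) went through 689, 4690.0, 3769 and 898 CPM over these 4 stages and reached 247 CPM in root. The briefest courses were those of the 8 genes that were at least 4-fold below heart again at the cotyledon stage. Glyma14g38450 (chromosome 14) is one: it had 5.78, 82.3, 13.7 and 0.255 CPM over the 4 stages, and Glyma09g35950 (chromosome 9) had 23.6, 109.8, 19.7 and 0.709 CPM.

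Genes that stood higher still at early maturation included Glyma11g21480 (chromosome 11), with 42.0, 677, 1033 and 3107 CPM over globular, heart, cotyledon and early-maturation seed, and Glyma02g45050 (chromosome 2), with 1.73, 65.9, 292 and 771 CPM. Both were low in dry seed, at 1.49 and 0.629 CPM in the same order. Of the 50 such genes, 32 had every organ at least 4-fold under heart and 13 had an organ at or above it. Glyma09g12200 (chromosome 9) is among those 13: it had 638 CPM in heart and 12.4 in globular seed (51.3-fold, 47.3 to 55.7), 4845 CPM at early maturation and 6915 CPM in root, the highest of its values. Glyma09g01320, also on chromosome 9, had 494 CPM in heart and 3.03 in globular seed, and 972 CPM in root.

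**Figure D5:**
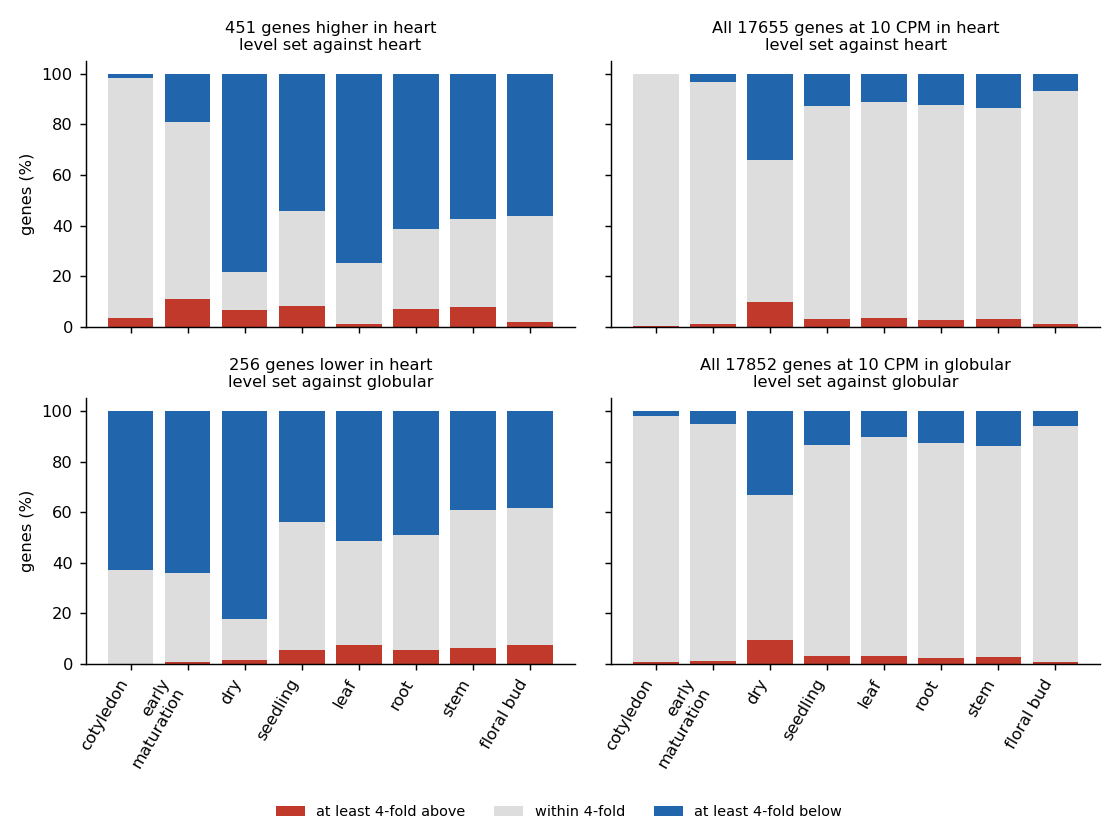
Bars give the percentage of genes at least 4-fold above (red), within 4-fold of (grey) and at least 4-fold below (blue) the heart level (top) or the globular level (bottom) in 3 later seed stages and 5 other organs. Left are the 451 genes higher and the 256 genes lower in heart, right all genes with at least 10 CPM in heart (17655) or globular seed (17852): the called genes are more often far below in the later samples, and at early maturation the higher genes are also more often far above heart (11.1% against 1.25%). The heart and globular samples also chose the called genes.

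Most genes that fell after the globular stage were also at least 4-fold below globular later in the seed. Of the 256, 161 (62.9%) were at least 4-fold below globular in cotyledon seed, 164 (64.1%) at early maturation and 211 (82.4%) in dry seed, against 1.84%, 5.22% and 33.5% of all 17852 genes with at least 10 CPM in globular seed. None was at least 4-fold above globular in cotyledon seed, and 26 were at or above the globular level at early maturation. Set against heart, 57 (22.3%) were at least 4-fold above it at early maturation, 166 (64.8%) within 4-fold and 33 (12.9%) at least 4-fold below. Both samples also chose these genes, so counts are set side by side without a test. Over globular, heart, cotyledon, early-maturation and dry seed their medians were 27.7, 4.62, 5.49, 6.32 and 0.393 CPM. They were between 7.68 (root) and 15.0 CPM (floral bud) in the non-seed organs. An organ was at or above globular in 147 (57.4%), close to the 59.6% of all genes at 10 CPM in globular seed. In 26 (10.2%, against 1.62%) every organ was at least 4-fold under it. Globular seed, which also chose these genes, was the highest of the 10 count samples for 97 (37.9%), against 16.1% of all genes at 10 CPM there. Stem was highest for 38 (14.8%, against 8.42%), root for 33 (12.9%, against 6.41%) and leaf for 31 (12.1%, against 12.4%). Floral bud was highest for 24 (9.38%, against 2.19%), dry seed for 14 (5.47%, against 29.5%) and seedling for 11 (4.3%, against 3.57%). Early-maturation seed was highest for 8 (3.12%, against 8.91%). Every organ was under 1 CPM in 6 (2.34%, against 0.297%).

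Glyma04g42770 (chromosome 4) had the highest globular level among genes low in every organ: 1438 CPM in globular, 205 in heart, 17.9 in cotyledon and 0.850 CPM in early-maturation seed, then 0 counts in dry seed and at most 0.782 CPM in the organs. Its fall was 7.01-fold (6.81 to 7.22) by the heart stage. Glyma19g43580 (chromosome 19) had 516, 64.5, 23.2 and 38.8 CPM over these 4 stages. By contrast Glyma10g34460 (chromosome 10) had 7.03 CPM in heart and 444 in globular seed, a 63.1-fold fall (54.2 to 73.9), and reached 2134 CPM in leaf and 465 in floral bud. Glyma08g46520 (chromosome 8) had 70.0 CPM in heart and 482 in globular seed, returned to 647 CPM at early maturation and had 919 CPM in leaf. Glyma02g43270 (chromosome 2) had 47.8 CPM in heart and 246 in globular seed, and it reached 468 CPM at early maturation.

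Beside the 4 lower genes with 0 counts in heart, others were nearly undetected there. Glyma06g02420 and Glyma03g04670 had the largest falls with counts below 3 raised to 3. Glyma06g02420 (chromosome 6) had 2 counts in heart and 2419 in globular seed, which is a 580-fold difference (160 to 4792) by the counts as they are, and among the other samples it was highest in floral bud, at 3.76 CPM. Glyma03g04670 (chromosome 3) had 3 and 1809 counts in heart and globular seed, 7.36 CPM in floral bud and 0.0943 CPM or less in every other sample. Floral bud was thus the only other count sample in which either exceeded 2 CPM.

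Mid- and late-maturation seed were deposited as RPKM on another set of gene models, so only presence is compared. At mid maturation 286 of the 451 higher genes (63.4%) had at least 1 RPKM, and at late maturation 145 (32.2%). Among all genes at 10 CPM in heart these shares were 83.4% and 70.8%. Of the 256 lower genes, 123 (48.0%) had at least 1 RPKM at mid and 82 (32.0%) at late maturation, against 82.5% and 71.1% of all genes at 10 CPM in globular seed. Glyma11g21480 was at 742 RPKM at mid and 1.01 RPKM at late maturation, and Glyma06g02500 at 241 and 0.130 RPKM.

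By the chromosome that the identifier carries, the share of measured genes called higher ran from 0.791% on chromosome 5 to 2.13% on chromosome 14, and that called lower from 0.532% on chromosome 8 to 1.08% on chromosome 1. In identifier order, 29 of the 451 higher genes (6.43%) stood next to another higher gene, against 1.51% of all measured genes. They formed 14 runs on 8 chromosomes: 13 of 2 genes and 1 of 3. None of the 256 lower genes stood next to another lower gene, while 0.852% of measured genes stood next to one. How reads shared by near-identical neighbours were counted is not given in the sources used here. Among the largest changes, chosen after their values were seen, Glyma06g02420 (lower in heart) and Glyma06g02500 (higher) were 8 models apart, and Glyma03g04390 (higher) and Glyma03g04670 (lower) 26 apart. Over all lower genes, 42 of 256 (16.4%) had a higher gene within 10 models, near the 13.8% of all measured genes.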

How the data were processed

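Poly-A RNA was sequenced as single-end reads of 76 bases, per the labels' protocols, with 1 sample for each of 12 stages or organs. For 10 samples the authors deposited raw counts of mapped reads per gene model, and per the submitters' processing notes Bowtie was the aligner. For mid and late maturation they deposited RPKM, with Bowtie and bedtools named in the same notes, for genes above 0 only. The sources used here do not give tool versions, the build, the annotation or how multiply matching reads were counted, so near-identical copies (such as Gy1 and Gy2) and overlapping genes may share reads. None of the 74818 identifiers matched the reference table (59048 genes), so no sequence or coordinate is shown. TMM factors for all 10 count samples came from edgeR 4.0.16 in R 4.3.3. Calls needed 4-fold, a floor of 3 counts and 10 CPM in the higher sample. The calculation of the calls and of the share was checked on simulated counts with known folds and a known share. Such a check covers the calculation only and says nothing about the data. Reference genes of the early-maturation share, members and lists were chosen with earlier results of these data known. Named genes were all listed loci, the 2 largest changes in each direction, and at most 2 identifiers with the highest level in each class of later course. Of 58 listed loci, 56 had a row in the count files, 37 were measured, 3 rose and none fell. The Kunitz inhibitor KTI3 and the flowering gene E1 had none. Alternatives were plain CPM, DESeq2 1.42.0 size factors, other folds, minimums and floors, and removal of the share. Scripts ran in Python 3.11.15 with scipy 1.17.1, pandas 2.3.3 and numpy 2.4.6, and figures were drawn with matplotlib 3.10.9.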

Additional observations from a re-analysis of the deposited data

How the results depend on the processing

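No paired analysis was possible because each stage has 1 sample. Plain CPM gave 475 higher and 269 lower genes, DESeq2 size factors 474 and 222, and a floor of 10 counts 451 and 256. The counts moved with the thresholds: 1324 higher and 1500 lower at 2-fold (so that the majority turned), 222 and 71 at 8-fold, 1391 and 879 with a minimum of 1 CPM, 121 and 76 with 50 CPM, and 2344 and 1192 with none. With a minimum of 1 CPM and the share removed, a setting chosen after seeing the data, they were 1402 and 868. The share stayed between 6.65 and 7.28 per 10000 over the other choices of reference genes, and 46 to 85 genes were near it. Counts by later level changed when 2-fold in place of 4-fold set a gene apart. Of the higher genes, 114 were then above and 40 below heart in cotyledon seed, 93 above, 191 within and 167 below at early maturation, and 29 within in dry seed. Of the lower genes, 13 were within and 243 below globular in cotyledon seed, 7 above and 51 within at early maturation, and 11 above and 27 within in dry seed, where plain CPM put 2 above in place of 4. The dry sample had the TMM factor farthest from 1, 0.591. Of 66 named genes, plain CPM moved 0, DESeq2 size factors 12 and removal of the share 17 beyond their counting intervals. Removal of the share only reduces globular counts, so it could not turn a higher gene lower. None of the called genes changed direction. With the share removed, uncalled loci did: the log2 ratio of the alpha-prime subunit became 4.56, of LOX2 1.80, of LE1 0.50, of LOX3 0.49 and of Gy5 0.17, while Gy1 and Gy2 had both samples under the floor. The alpha-prime subunit and LOX2 had no globular counts left, so their ratios set heart counts against the floor. At 22.0 M heart counts, levels under 0.126 CPM were not detectable as different from 0.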
